A study of Mus musculus with 78 samples.

Results

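Old L1 and Lx copies are for the most part remnants of long interspersed elements (LINEs) that stopped moving before the present mouse subfamilies arose. The word old is a label for the set, which also holds mouse subfamilies such as L1_Mm and L1_Mus. The members were chosen by name, as the rows of the deposited repeat tables whose subfamily name begins with Lx, L1_M, L1VL, L1P, or L1M with a letter from A to E and a further letter or digit. L1Md, the name of the young mouse subfamilies, is outside this rule and served for comparison. The tables listed 461206 repeat copies over both stages, and 29670 of them were members. At the 4-cell stage 14502 of 278683 listed copies were members, and at the 8-cell stage 20681 of 327627 were. The young L1Md subfamilies had 2448 listed copies at the 4-cell stage and 7470 at the 8-cell stage.

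The data are Smart-seq2 profiles of single blastomeres from mouse embryos. Every embryo was meant to carry 1 copy of a Brainbow cassette in the Gt(ROSA)26Sor locus and 1 copy of the Cre recombinase transgene Tg(CAG-cre/Esr1*)5Amc, in which the CAG promoter, active in most cell types, drives a Cre that tamoxifen activates. Embryos were taken as 2-cell embryos at 46 hours after the second hormone injection, exposed to 4-Hydroxytamoxifen for 2 hours and grown in KSOM medium, so both stages shared the alleles and the drug, and no unexposed group was analysed here. The labels name 36 blastomeres of 9 embryos at the 4-cell stage and 31 blastomeres of 4 embryos at the 8-cell stage. The repeat tables hold 24 columns for the 4-cell stage and 26 for the 8-cell stage, and their names match no sample label, so embryo and lineage were not assigned to columns. The labels give lineages A and B to 12 and 12 blastomeres of 6 embryos at the 4-cell stage. At the 8-cell stage they give them to 13 and 13 of 4 embryos. The paper restricted its analyses to blastomeres with a traced lineage, so the columns may be this subset and not all labelled blastomeres. Blastomeres of an embryo are not independent, so each stage was treated here as 1 sample, no test between stages was run, and the ranges below are ranges over blastomeres.

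LINEs of the L1 type copy themselves through an RNA intermediate, and most copies in a genome are truncated at the 5′ end and cannot move. Copies of the L1MA to L1ME groups are shared among many mammals, whereas Lx, L1_Mus, L1_Mur and L1VL copies belong to rodent or mouse lineages. L1Md subfamilies include copies that can still move and are known to be transcribed in the cleavage-stage mouse embryo. Old copies are short, diverged and spread over introns and intergenic DNA, so a read on an old copy can come from a longer RNA that crosses it. The names give the subfamily, the chromosome and a serial number, and positions and sequences of the copies were not used here.

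Several columns stood apart before any comparison. The deposited values could be resolved into whole fragments (read pairs), as a lower bound per copy, and the total of fragments behind the values of a column, its depth, ran from 6.88 M to 16.9 M (M, 1e6 fragments; median 13.4 M) in 4-cell columns and from 2.34 M to 21.8 M (median 17.3 M) in 8-cell columns. The lower bound is looser for copies seen in few columns, whose true fragment numbers can be higher than those recovered. The shallowest column, S57 of the 8-cell stage, also had the fewest repeat copies above 0, 9582 against a stage median of 36262. In column S18 of the 4-cell stage, the median old LINE value rested on 1 fragment and 74.7% of the old LINE values on 1 fragment, whereas the median of the other 23 columns was between 6 and 21 fragments. In 7 of the 26 8-cell columns (S52 to S58) the median was 3 fragments or fewer. Columns S48, S51 and S52 of the 8-cell stage each held more young than old LINE copies above 0. All 8 early-embryo genes that were checked were listed at both stages, and 7 of them at the 4-cell stage and 5 at the 8-cell stage had a median above 1 FPKM. Dppa3, a maternal factor, and Tead4, a factor of the outer lineage, were above 1 FPKM in every column, whereas the oocyte gene Ooep was in 11 of 24 and 9 of 26 columns. Of 6 genes of cumulus and granulosa cells, 2 were listed at the 4-cell stage and 1 at the 8-cell stage, with 2 and 1 values above 1 FPKM, respectively.

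The median 8-cell blastomere held more old LINE copies above 0 than the median 4-cell blastomere, but the stages overlapped broadly and not all 8-cell columns lay higher. At the 4-cell stage the number of old copies above 0 ran from 429 in column S20 to 2153 in S5, with a median of 1104. In 8-cell blastomeres it ran from 454 in S57 to 3193 in a column named NA, with a median of 1505.5. The 8-cell median was 1.36 times the 4-cell median. Of the 26 8-cell blastomeres, 20 lay above the 4-cell median and 1 above the highest 4-cell blastomere. The 6 below the 4-cell median were S50 and 5 of the 7 columns with a median of 3 fragments or fewer (S53, S55, S56, S57 and S58), and those 7 columns held 454 to 1420 old copies. Without these 7 columns and S18 the medians were 1101 and 1746, and the ratio was 1.59. The number of all other repeat copies had medians of 35537.5 and 34027.5, an 8-cell to 4-cell ratio of 0.958 over all columns and of 1.05 without those 8 columns, so their direction depended on these columns.

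As a share of all repeat copies above 0 in the same blastomere, old LINEs took a median of 3.08% at the 4-cell stage, with a range from 1.61% to 4.99%. The 8-cell median was 4.30%, with a range from 2.84% to 4.96%. The 8-cell share was above the 4-cell median in 24 of 26 blastomeres, yet none was above the highest 4-cell blastomere, which was S18. Without S18 the highest 4-cell share was 4.34%, and 13 of 26 8-cell blastomeres lay above it.

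**Figure D1:**
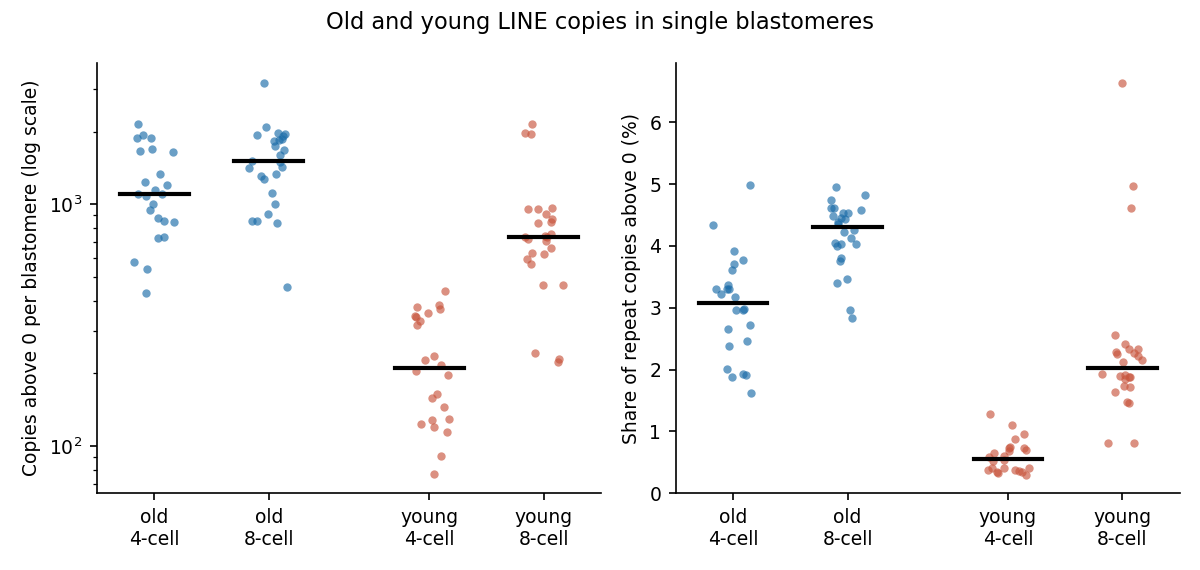
Number of LINE copies above 0 in each blastomere (left, log axis) and their share of all repeat copies above 0 in that blastomere (right, %); points are 24 blastomeres of the 4-cell and 26 of the 8-cell stage and bars are medians. Old copies moved from a median of 1104 to 1505.5 with overlapping ranges, and young copies from 210.5 to 735.5 with less overlap.

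Pooled young L1Md copies, measured in the same columns, differed more between the stages than old ones. A 4-cell blastomere held between 77 and 439 young copies above 0 (median 210.5), and an 8-cell blastomere between 223 and 2151 (median 735.5). The ratio of the medians was 3.49, against 1.36 for old copies. All 26 8-cell blastomeres exceeded the 4-cell median for young copies, and 23 exceeded the highest 4-cell blastomere. Within a blastomere, old copies outnumbered young ones by a median of 5.43 to 1 at the 4-cell stage (range 3.01 to 8.52) and by 2.09 to 1 at the 8-cell stage (range 0.660 to 3.65). Only uniquely aligned reads were counted, so reads that fit several near-identical copies are missing. This loss can differ between old and young copies and was not measured. By subfamily, the 8-cell list was 4.64 times the 4-cell list for L1Md_A, 4.52 times for L1Md_T, 2.99 times for L1Md_Gf and 2.74 times for L1Md_F. For L1Md_F2 (987 and 1711 copies) and L1Md_F3 the ratios were 1.73 and 1.55, within the range of the old subfamilies given further on. The old to young ratio was below 1 in the 3 columns S48, S51 and S52. Without those 3 columns the 8-cell to 4-cell ratio was 1.37 for old and 3.41 for young copies. With every column thinned to 600000 fragments on repeats, which left out S57, the ratios were 1.30 and 2.81. Counting only copies above 1 FPKM they were 1.28 and 2.02, and without the columns with a median of 3 fragments or fewer they were 1.59 and 3.70.

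Counted as fragments instead of copies, the stage ratios of old and young copies lay closer together. Old copies held a median of 2995 fragments per M at the 4-cell stage (range 2102 to 5034) and 4157 per M at the 8-cell stage (range 1724 to 6056), a ratio of 1.39. Of the 26 8-cell blastomeres, 19 lay above the 4-cell median and 6 above the highest 4-cell blastomere. Those below the 4-cell median were S49 to S53, S55 and S58, with 1724 to 2930 per M. Columns S59 to S68 and those named NA held 3761 to 6056 per M, so the ratio depended on the 8-cell columns taken. A fragment ratio without the columns of few fragments was not computed. Young copies held a median of 290.3 and 728.0 fragments per M, a ratio of 2.51. The fragments on other repeats had medians of 92444 and 92633 per M. Old copies therefore held a median of 10.2 times the fragments of young copies in a 4-cell blastomere and 5.46 times in an 8-cell blastomere. These are ratios of uniquely aligned fragments and not of RNA amounts.

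A value of an old copy rested on more fragments than a value of a young copy. Of 28608 old LINE values above 0 at the 4-cell stage, 24.05% rested on 1 fragment and 47.5% on at least 10. Of 39439 values at the 8-cell stage, 26.2% rested on 1 fragment and 50.4% on at least 10. For young copies 44.3% of the values at the 4-cell stage and 58.9% at the 8-cell stage rested on 1 fragment. The lengths recovered with the fragments differed as well. Among copies above 0 in at least 5 blastomeres, old copies had a median length of 320.5 bases at the 4-cell stage (n = 1078) and 332 bases at the 8-cell stage (n = 1361). Young copies had medians of 5585 and 5793 bases. FPKM is a number of fragments divided by length and depth, and the median value above 0 was 2.55 FPKM for old and 0.142 FPKM for young copies at the 4-cell stage, and 2.34 and 0.0180 FPKM at the 8-cell stage.

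Most old LINE copies were seen in 1 blastomere only. At the 4-cell stage 10499 of 14502 members, 72.4% (95% exact binomial interval 71.7% to 73.1%), were above 0 in 1 column, where the share over all repeat copies was 54.8%. At the 8-cell stage 14929 of 20681 members, 72.2% (71.6% to 72.8%), were, where the share over all repeat copies was 59.8%. The intervals cover counting error only. The shares of the other repeat copies were 53.7% and 59.0%, and those of young L1Md copies 58.9% and 57.6%. The old share was thus nearly the same at both stages and 13.5 and 14.6 percentage points above that of the pooled young copies. The L1Md pool was mixed, however. L1Md_A (40.5% and 49.8%), L1Md_T (40.5% and 51.8%) and L1Md_Gf (38.0% and 41.5%) lay below the old copies, L1Md_F lay at 38.9% and 60.1%, and L1Md_F2 (77.1% and 74.8%) and L1Md_F3 (80.2% and 76.9%) lay above them, so a high share was not particular to old copies. Reducing the 8-cell table to 24 columns, in exact expectation, gave 72.7% for old copies.

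At the other end, few members were seen in many blastomeres. At least 5 blastomeres were above 0 for 1078 members at the 4-cell stage, 7.43%, against 19.8% of the other repeat copies. The figures at the 8-cell stage were 1361 members, 6.58%, against 14.6%. A value above 0 in at least 12 of 24 4-cell blastomeres was found for 327 members, and in at least 13 of 26 8-cell blastomeres for 328. These were 2.25% and 1.59% of the members, against 7.21% and 4.59% over all repeat copies. Every blastomere was above 0 for 26 members at the 4-cell stage and 33 at the 8-cell stage (1391 and 1242 over all repeat copies), and 16 members were above 0 in all 50 columns. A member seen in 1 blastomere also had fewer recovered fragments. Its value rested on a median of 4 fragments at the 4-cell stage and 3 at the 8-cell stage, against 12 and 17 for values of members seen in more blastomeres. Even so, 35.2% and 36.02% of the values seen in 1 blastomere only rested on 10 or more fragments. The recovery itself lowers the numbers of copies seen in 1 column, and its part in this contrast was not tested.

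**Figure D2:**
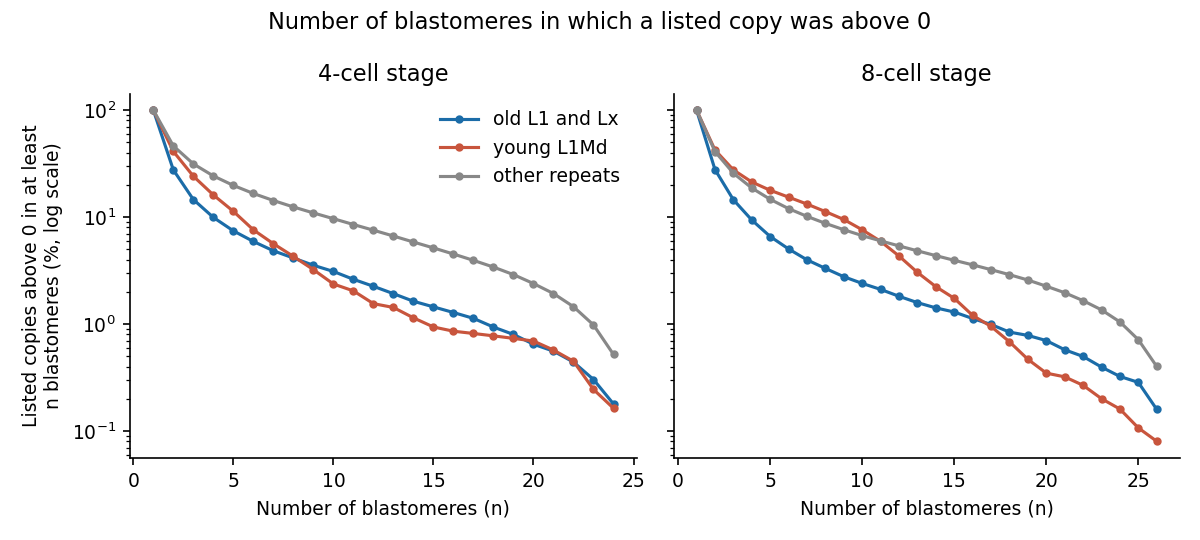
Share of listed copies (%, log axis) that were above 0 in at least the given number of blastomeres, for old L1 and Lx, young L1Md and other repeat copies at each stage. Old copies fell fastest from 1 to 5 blastomeres, to 7.43% (4-cell) and 6.58% (8-cell), and crossed the young copies further right.

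The distance between old and young copies in this share depended on the threshold. Counting only copies with at least 2 fragments in a blastomere, the 1-blastomere share was 68.9% for old and 65.7% for young copies at the 4-cell stage, and 67.0% and 52.8% at the 8-cell stage. This filter uses the lower bound on fragments, so it can remove too many of the copies seen in 1 column. Counting only copies above 1 FPKM, it was 72.4% for old and 77.6% for young copies at the 4-cell stage, and 70.0% and 72.2% at the 8-cell stage. The old share was then the lower one at both stages, and the young copies that passed were 691 and 1249.

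The share of a blastomere's own members that no other blastomere of its stage had was 31.5% in the median at the 4-cell stage, from 18.4% in S4 to 76.4% in S18. The 8-cell median was 37.4%, from 27.3% in S50 to 52.5% in S58. The same measure for other repeat copies had medians of 14.02% and 19.3%. S18 held 1332 members above 0, of which 1017 were in no other 4-cell column, and 71.8% of its young copies were likewise in no other column. Without S18 the 1-blastomere share of old copies at the 4-cell stage was 71.0%, and without the 7 columns S52 to S58 that of the 8-cell stage was 70.7%. Whether the few fragments behind the values of S18 account for its share was not tested.

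**Figure D3:**
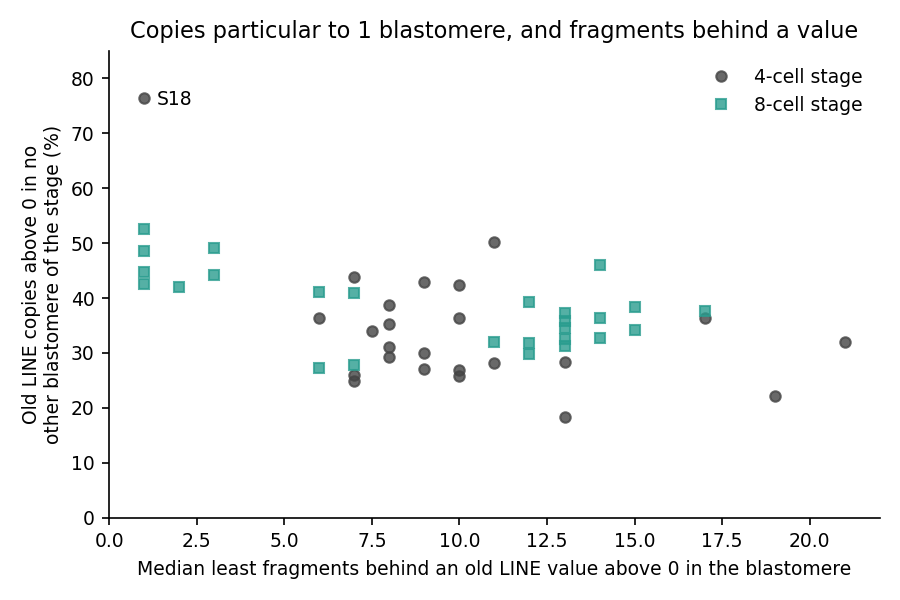
Share of a blastomere's old LINE copies that were above 0 in no other blastomere of the stage (%), against the median number of fragments behind its old LINE values; each point is 1 blastomere. S18 lies apart at 1 fragment and 76.4%, and the 7 8-cell columns with a median of 3 fragments or fewer lie between 41.9% and 52.5%.

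A pair of blastomeres of the same stage shared a median of 247.5 members at the 4-cell stage over 276 pairs, which was 29.4% of the smaller and 18.3% of the larger list. At the 8-cell stage the median was 279 members over 325 pairs, 23.4% of the smaller and 16.4% of the larger list. The most similar pairs shared 50.2% (S1 and S4) and 37.0% (S50 and a column named NA) of the smaller list. For other repeat copies the median shares of the smaller list were 43.2% and 38.4%. The number of old copies in a blastomere went up with the number of other repeat copies (Spearman's rho 0.716 over 24 4-cell and 0.945 over 26 8-cell blastomeres). It also went up with the number of young copies (rho 0.848 and 0.668), whereas its rho with the depth of the column was -0.0626 and 0.372. These are descriptions over blastomeres, some of which come from the same embryo.

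The Lx copies, the rodent group, made up 6415 members at the 4-cell stage and 8889 at the 8-cell stage, 44.2% and 43.0% of all members. The mouse and murine L1_M subfamilies had 2781 and 4114 members. The L1ME copies, the most ancient L1M group here, had 1373 and 1927, L1MB 1205 and 1741, L1MC 1191 and 1795, L1MA 902 and 1305, L1MD 335 and 473, L1VL 294 and 428, and L1P 6 and 9. Each of the 8 groups with more than 10 members had a longer list at the 8-cell stage, by 1.39 to 1.51 times. That stage had 26 columns against 24, and the list over all repeat copies was 1.18 times as long.

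Apart from L1P, with 6 and 9 copies, the share seen in 1 blastomere only varied by about 5 percentage points among the groups. At the 4-cell stage it lay between 69.6% (L1MD, interval 64.3% to 74.4%) and 74.9% (L1MA, 72.0% to 77.7%). At the 8-cell stage it lay between 69.0% (L1ME, 66.8% to 71.0%) and 74.0% (L1MA, 71.6% to 76.4%).

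**Figure D4:**
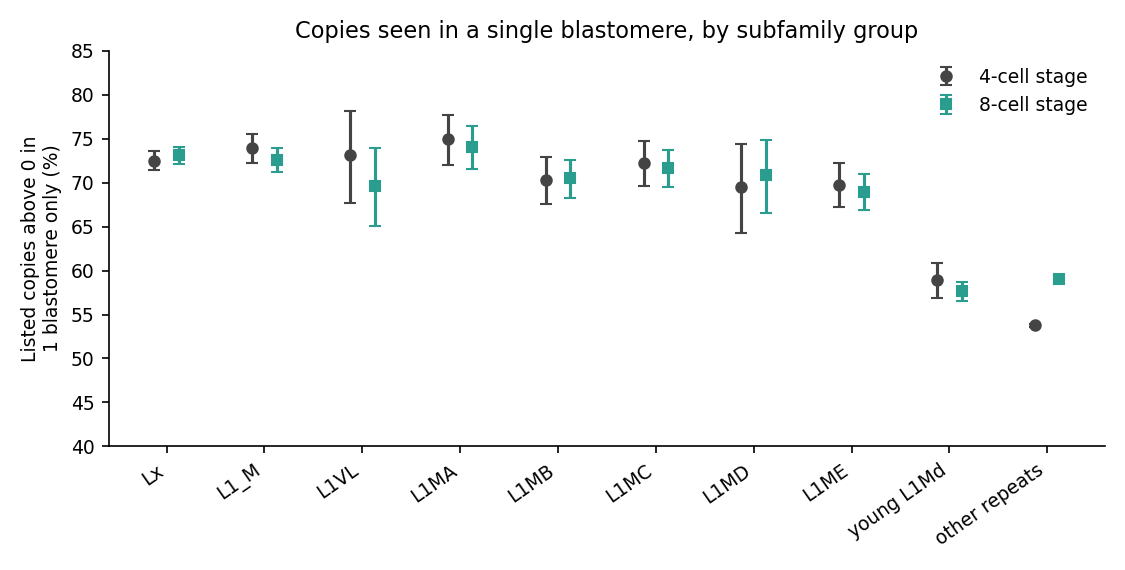
Share of listed copies above 0 in 1 blastomere only (%), by subfamily group and stage, with 95% exact binomial intervals that cover counting error; the axis starts at 40%, and L1P, with 6 and 9 copies, is left out. The 8 old groups lie between 69.0% and 74.9%, above the pooled young L1Md copies at 58.9% and 57.6%, a pool that includes L1Md_F2 and L1Md_F3 at 74.8% to 80.2%.

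In fragments the groups parted more. The median over blastomeres for L1_M copies was 410.6 fragments per M at the 4-cell stage and 798.8 at the 8-cell stage, a ratio of 1.95. For L1VL copies it was 53.2 and 120.1, a ratio of 2.26. For Lx copies it was 1152 and 1592, a ratio of 1.38. The L1MA, L1MB, L1MC and L1ME groups had ratios of 1.19, 1.17, 1.25 and 1.36, and L1MD, with 124.9 and 121.7 fragments per M, a ratio of 0.974. The L1MC values include 1 strong copy, L1MC3_dup95, with medians of 717.2 FPKM at the 4-cell and 531.3 FPKM at the 8-cell stage. The L1MC ratio without this copy was not computed. The ratios of the mouse and rodent groups L1_M and L1VL came closest to that of young copies, 2.51. These 2 groups also had the longest copies, with median lengths of 621.5 and 1074 bases at the 4-cell stage and 829 and 1483 bases at the 8-cell stage for copies in at least 5 blastomeres, whereas L1ME copies had 162.5 and 152.5 bases.

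Of 92 subfamilies among the members, 48 had at least 100 listed members at both stages. Lx8 had the most, 1251 in the 4-cell list and 1667 in the 8-cell list, followed by Lx9 (860 and 1297) and Lx7 (821 and 1135). The fewest at the 4-cell stage were in Lx3B (100) and L1_Mm (101), followed by L1VL4, L1_Mur1 and Lx3A (104 each). At the 8-cell stage the fewest were in Lx3B (119), L1_Mur1 (123) and Lx3A (144). The share seen in 1 blastomere only was lowest at the 4-cell stage in L1_Mm (56.4%), L1MEg (62.6%) and L1MB2 (63.2%), and at the 8-cell stage in L1MEg (58.6%), L1_Mm (60.8%) and L1VL2 (64.7%). It was highest at the 4-cell stage in L1_Mur1 (80.8%), L1_Mus4 (77.8%) and L1MC4 (77.7%), and at the 8-cell stage in Lx3_Mus (80.7%), L1MA5 (78.2%) and Lx4B (77.4%). L1_Mm and L1MEg were thus among the lowest 3 at both stages, and no subfamily was among the highest 3 at both.

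The list of every one of these 48 subfamilies was longer at the 8-cell stage, which had 26 columns against 24, where the list over all repeat copies was 1.18 times as long. The ratio of the list lengths was lowest in L1_Mur1 (1.18), Lx3B (1.19) and Lx4B (1.20) and highest in L1VL4 (1.77), L1_Mus2 (1.62) and L1MCa (1.62), with a median of 1.42. By fragments per M, the median blastomere held most in Lx8 (262.8), L1MC3 (152.1) and Lx9 (131.4) at the 4-cell stage and in Lx8 (340.7), Lx9 (206.0) and L1_Mus3 (200.9) at the 8-cell stage. It held least in L1_Mur1 (5.76), L1_Mm (7.53) and L1MEf (7.71) at the 4-cell stage and in L1MEf (8.20), Lx4B (12.9) and L1MC5a (14.9) at the 8-cell stage. The high 4-cell place of L1MC3 rested largely on 1 copy, L1MC3_dup95, with a median of 1683.5 fragments at that stage. The place of L1MC3 without this copy was not computed.

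The listed members were a small part of the copies in the genome. If the serial numbers of a subfamily run without gaps on each chromosome, which the files do not state, the highest number gives a least number of annotated copies, 626099 for the members. The shares of annotated copies here and by chromosome rest on that reading. The listed copies were then at most 2.32% of them at the 4-cell stage and 3.30% at the 8-cell stage. The same bounds were 1.99% and 6.07% for young L1Md copies and 6.53% and 7.47% for other repeats. Over both stages, and among the 48 subfamilies with at least 100 listed members at both, the share was highest in the ancient subfamilies L1MC5 (9.90%), L1MC4 (9.82%) and L1MB5 (9.73%) and lowest in Lx2 (2.62%), Lx3A (2.97%) and L1_Mus3 (3.15%).

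By chromosome, the listed share of members was highest on chromosome 11 at the 4-cell stage (3.26%) and on chromosome 9 at the 8-cell stage (4.66%). It was lowest on the Y chromosome (0.281% and 0.526%), followed by X (1.43% and 2.37%). The other repeat copies had the same order, with 0.704% and 0.841% on Y and 4.32% and 5.32% on X. The X chromosome held 887 members at the 4-cell stage and 1464 at the 8-cell stage. That is 6.12% and 7.08% of the members, where 3.52% and 3.78% of the other repeat copies were on X. Of the annotated copies, X held 9.88% for the members and 5.31% for other repeats, so both were listed on X below their annotated share. The share of X copies seen in 1 blastomere only was 75.5% and 73.4%, near that of all members.

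A member seen at one stage was often missing from the other. Of the 4-cell members 38.0% were also listed at the 8-cell stage, where 52.1% of all 4-cell repeat copies were. Of the 8-cell members 26.7% were also listed at the 4-cell stage, where 44.3% of all 8-cell copies were. In total 5513 members were listed at both stages. The share depended on the number of blastomeres. Of 4-cell members seen in 1 blastomere 25.2% were listed at the 8-cell stage, of those seen in 2 to 4 blastomeres 63.6%, and of those seen in 5 or more 93.3%. Over all repeat copies these shares were 31.96%, 63.5% and 94.1%, close to the members except among copies seen in 1 blastomere. Of 8-cell members 14.9%, 47.1% and 89.9% were listed at the 4-cell stage, against 25.6%, 60.7% and 93.1% over all repeat copies. Young copies differed from this at the 8-cell stage, where 37.9% of those seen in 5 or more blastomeres were listed at the 4-cell stage. The corresponding share of other repeat copies was 94.9%.

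The share of blastomeres above 0 was compared between stages for the 1320 members that were above 0 in at least 6 blastomeres of either stage, with a copy that a stage did not list taken as 0 there. A difference of at least 50 percentage points was called. It was met by 6 members with the higher share at the 4-cell stage, 0.455% of those compared, where 1.68% of all repeat copies met it. With the higher share at the 8-cell stage it was met by 8 members, 0.606%, where 0.810% of all repeat copies met it. A copy could enter through the stage where it was seen more often, so these counts describe the copies that entered and not all members.

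The 5 members with the largest differences toward the 4-cell stage had 4-cell medians between 0.0324 and 3.66 FPKM. L1ME3F_dup16 on chromosome 7 was above 0 in 18 of 24 blastomeres at the 4-cell stage (median 0.932 FPKM, highest 10.5) and in 4 of 26 at the 8-cell stage (median 0, highest 10.9). L1_Mus2_dup1382 on chromosome 1 was above 0 in 17 and 3 blastomeres, with medians of 0.446 and 0 FPKM. L1MC3_dup162 on chromosome 9 was above 0 in 17 and 4, with medians of 3.66 and 0 FPKM and highest values of 12.8 and 14.04. L1MC4_dup102 on chromosome 11 was above 0 in 18 and 6 blastomeres, and L1_Mus2_dup43 on chromosome 10 in 13 and 1. The ranges of these 5 copies overlapped between stages, since each stage had values of 0 and values above 0.

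Toward the 8-cell stage the largest difference was that of L1ME3A_dup98 on chromosome 7, which was above 0 in 2 of 24 blastomeres at the 4-cell stage (highest 14.7 FPKM) and in 20 of 26 at the 8-cell stage (median 6.58, highest 39.4 FPKM). L1MCa_dup116 on chromosome 9 was above 0 in 3 and 18 blastomeres, with medians of 0 and 13.5 FPKM and highest values of 8.37 and 59.7. Lx9_dup274 on chromosome 7 was above 0 in 1 and 16 blastomeres, with medians of 0 and 1.58 FPKM. The long copies Lx4A_dup365 on chromosome 2 (5769 bases) and Lx2_dup574 on the X chromosome (5812 bases) were not listed at the 4-cell stage and were above 0 in 16 and 15 blastomeres at the 8-cell stage. Their median values rested on 1 fragment each, 0.00996 and 0.00898 FPKM, although Lx2_dup574 reached 108 fragments and 0.992 FPKM in column S63.

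The 10 members described next were picked for being above 0 in all 50 columns with the highest median values. The strongest was L1MC3_dup95 on chromosome 16, 179 bases long, with 290.4 to 1503 FPKM at the 4-cell stage (median 717.2) and 379.8 to 1057 FPKM at the 8-cell stage (median 531.3). L1_Mur3_dup184 on chromosome 9, 40 bases long, had 77.5 to 805.7 FPKM (median 479.7) and 207.7 to 722.8 FPKM (median 339.0). FPKM divides by length, so this short copy ranked high on medians of 223.5 (4-cell) and 224.5 (8-cell) fragments. L1MEg_dup189 on chromosome 5 had 24.999 to 654.1 FPKM (median 185.8) and 2.99 to 427.1 FPKM (median 191.1). All 3 overlapped between stages over most of their range.

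The next were 2 further L1MEg copies and 1 L1MDa copy. L1MEg_dup110 on chromosome 12 had a median of 28.6 FPKM at the 4-cell and 41.1 FPKM at the 8-cell stage, L1MDa_dup20 on chromosome 19 of 34.8 and 21.4 FPKM, and L1MEg_dup82 on chromosome 17 of 16.6 and 11.6 FPKM. L1MEd_dup107 on chromosome 8 had medians of 17.01 and 8.68 FPKM, and L1MC1_dup92 on chromosome 19 of 8.03 and 4.46 FPKM. Of the Lx copies, Lx2A1_dup66 on chromosome 17 (660 bases) had medians of 5.44 and 3.22 FPKM, and Lx_dup1324 on the X chromosome (6677 bases) of 1.64 and 1.25 FPKM. The last of these is near the length of a whole L1 element, and its median value rested on 146.5 and 144.5 fragments. For several of the 10 copies the order of the stages depended on the 4-cell columns taken, in a split chosen after the values were seen. L1MC3_dup95 had a median of 945.5 FPKM in columns S1 to S12 and 494.8 FPKM in S13 to S24, and L1MDa_dup20 of 68.1 and 15.6 FPKM, so that the 8-cell medians of both lay between the 4-cell ones. The same held for L1_Mur3_dup184 and L1MEg_dup189. For the rest of the 10 copies both 4-cell medians lay on the same side of the 8-cell median.

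Few copies held much of the member fragments. The strongest member of a blastomere held a median of 4.61% of its member fragments at the 4-cell stage (2.04% to 10.1%) and 2.58% at the 8-cell stage (1.12% to 6.87%). The strongest 100 held a median of 57.7% and 46.7%.

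Copies of 1 subfamily with successive serial numbers on a chromosome tended to be above 0 in the same blastomere. The files do not say in which order the numbers were given, so a small difference is not taken as a distance. Among 1013 pairs of old copies at the 4-cell stage whose numbers differ by 1 and that were each seen in 1 blastomere only, 653 pairs, 64.5%, were seen in the same blastomere. At a difference of 2 the share was 28.5%, at 3 it was 11.3%, and at 10, 50 and 100 it was 6.70%, 4.82% and 6.73%. At the 8-cell stage it was 60.9% of 1640 pairs at a difference of 1, 25.4% at 2, 10.9% at 3, and 3.24%, 4.85% and 4.15% at 10, 50 and 100. Without S18 the 4-cell share at a difference of 1 was 66.5%.

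For pairs of young and of other copies the share at a difference of 1 was lower. For young L1Md copies the share at a difference of 1 was 36.5% of 85 pairs at the 4-cell stage and 26.8% of 257 pairs at the 8-cell stage. At a difference of 100 it was 0% of 16 pairs at the 4-cell stage and 16.2% of 167 pairs at the 8-cell stage. For other repeat copies it was 25.7% and 26.9% at a difference of 1 and 5.23% and 5.27% at 100. A listed copy with the number before or after was present for 24.9% of the members at the 4-cell stage and 30.2% at the 8-cell stage, for 14.3% and 22.1% of the young copies, and for 41.2% and 41.5% of the other repeat copies. Copies seen in 1 blastomere are therefore not independent of each other, and the exact binomial intervals above are narrower than they would be if such copies were counted once.

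**Figure D5:**
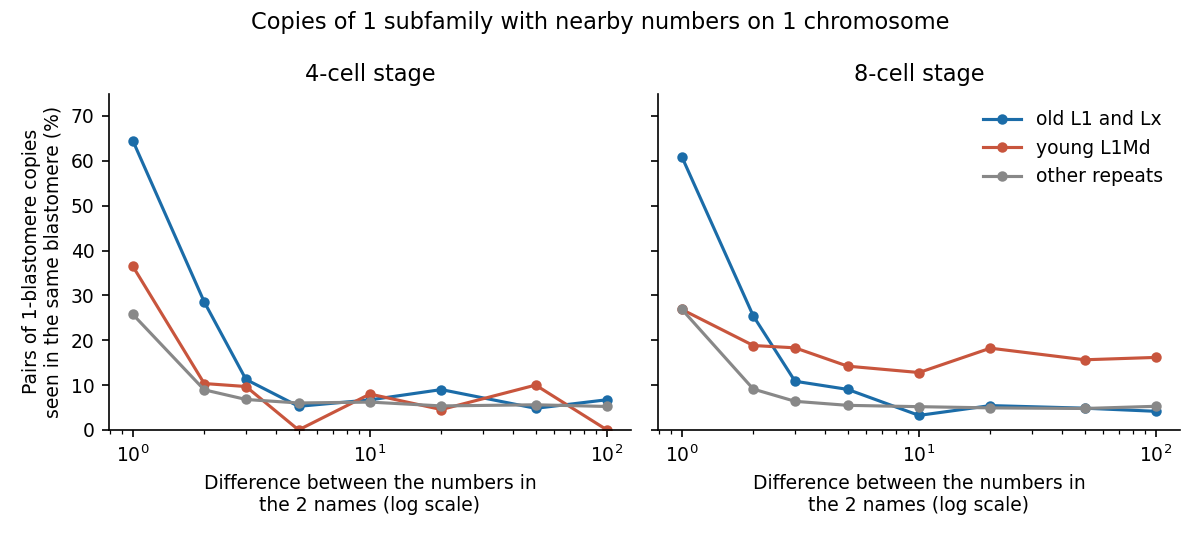
Share of pairs of copies, each above 0 in 1 blastomere only, that were above 0 in the same blastomere (%), against the difference between the serial numbers in their names (log axis), for pairs of 1 subfamily on 1 chromosome. Old copies started at 64.5% and 60.9% and reached 6.73% and 4.15% at a difference of 100.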

How the data were processed

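Single-blastomere Smart-seq2 libraries were aligned by the authors with STAR 2.5.1b to mm10, and only uniquely aligned reads were kept and counted with HTSeq on RepeatMasker copies, so reads that fit several near-identical copies are missing. The values deposited by the authors are FPKM for genes, and the repeat values were read as FPKM from their steps. The inverse of a value is the column's total times a whole length over a whole number of fragments, which gave each column's denominator, a least whole number of fragments per value and a least length per copy (98.7% of the 4-cell and 98.1% of the 8-cell values resolved, with at most 300 fragments searched). Lengths recovered apart in the 2 stages were the same for 99.4% of 32530 copies seen in at least 5 columns of each. On simulated tables all 8 of 8 denominators per stage were recovered. There 92.4% (4-cell) and 91.04% (8-cell) of the fragment numbers were exact, with none above the true number. These shares depend on the fragment numbers and lengths put into the simulation. They do not show how often the fragment numbers of the real tables were exact, which was not tested. The comparison of lengths leaves out copies seen in fewer than 5 columns of a stage, so those were not checked by it. The stage of each table was taken from the study's text.

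A copy was counted where its value was above 0. Copies above 0 per column, shares of copies, exact binomial intervals (95%), and the share of columns above 0 (copies in at least 6 columns of a stage, difference of at least 0.5) were computed with Python 3, numpy, pandas and scipy. Named copies were the 10 above 0 in most columns, by median value, and the 5 with the largest stage difference each way, with subfamilies of at least 100 copies at both stages ranked for the first and last 3. Alternatives were a threshold of 2 fragments or 1 FPKM, columns left out, member rules, fewer columns and thinning to 600000 fragments. The members, lists and rules were chosen with earlier results of these data known. None of the 50 repeat columns, of which 5 are named NA, has a name that matches a labelled sample, and samples were not assigned from column order or depth.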

Additional observations from a re-analysis of the deposited data

How the results depend on the processing

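No paired analysis was possible because the names of the columns give no embryo, lineage or replicate number, and no result comes from a test. Leaving out 1 column at a time kept the median old copies per blastomere at 1101 to 1107 (4-cell) and 1498 to 1513 (8-cell), their share of repeat copies at 2.99% to 3.18% and 4.26% to 4.35%, the 1-blastomere share at 71.0% (without S18) to 73.2% and 71.9% to 72.9%, and the old minus young difference at 11.99 to 15.5 and 13.98 to 15.2 points; the 8-cell to 4-cell ratio stayed at 1.36 to 1.37 for old and 3.39 to 3.61 for young copies.

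With 2 or more fragments the 1-blastomere share was 68.9% and 67.0%, and the difference from young copies 3.12 points at the 4-cell stage. Above 1 FPKM the 8-cell share was 70.0%, and the difference turned to -5.16 and -2.22 points, where the filter removes more of the long young copies, whose FPKM per fragment is lower. Without the columns with a median of 3 fragments or fewer the share was 71.0% and 70.7%, and the 8-cell difference 12.99 points. Thinning gave 71.0% and 70.1%, with differences of 9.76 and 12.3 points. Without the columns named NA the 8-cell share was 74.9% and the difference 16.5 points. Members without Lx took 1.85% and 2.51% of the repeat copies, Lx alone 1.35% and 1.73%, and members plus L1M with a digit and L1_Rod 4.99% at the 8-cell stage; the 8-cell 1-blastomere share was 71.5% without Lx and 73.1% for Lx alone. At a stage difference of 0.75 there were 0 members in either direction, and at 0.25 there were 162 (4-cell, 12.3% of those compared) and 176 (8-cell, 13.3%), against 24.1% and 10.2% over all repeat copies (0.0145% and 0.0199% at 0.75). Of 68 such settings 42 stayed within the spread set for them, 24 moved beyond it and 2 reversed the direction. That spread was wide for some results, and the young ratio of 2.02 above 1 FPKM, against 3.49, was counted as within it. The settings for the stage ratios and the thinning of copies per blastomere, the thinned and the reduced-column difference from young copies, and those without the columns of few fragments, were added after the data were seen. Counts near 1 fragment limit what can be said of single copies, each stage was treated as 1 sample with no test between stages, and a copy listed at 1 stage was taken as 0 in the other.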
